A study of Bos taurus with 24 samples.

Results

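The genes described here are the 150 genes whose level differed least between the granulosa cells of 23 cows. They were chosen as the genes with the lowest SD of log2 CPM among the 5614 genes with a mean of at least 20 CPM, out of 24615 genes listed for all cows. CPM is the count of a gene normalised to the size of its library, after the library sizes were scaled by edgeR's TMM method. The SD and the mean of these 23 libraries chose the genes, so both are given as a description and were not tested.

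Granulosa cells are the somatic cells that line the antral follicle and surround the oocyte. In this study they were aspirated from the antral follicles of both ovaries of slaughtered multiparous Holstein cows in the luteal phase, so 1 library holds the pooled follicles of 1 cow. For 15 cows the semen used on the oocytes came from bulls with a high index of total genetic merit (high-NTM cows) and for 9 cows from bulls with a low index (low-NTM cows), and the cells were collected before that step. Each cow has a BL rate (the percentage of inseminated oocytes that became blastocysts, from 0% to 71%), a kinetic score and a morphology score. The authors left out cow 8 of the low-NTM class. A much lower fraction of its read pairs mapped uniquely than in the other cows, and it was an outlier in their clustering and principal component analysis. So 23 cows (15 and 8) entered the choice of the genes. Cow 8 was kept as a library the choice had not seen, though not one of the same quality as the others. Antibody beads against leukocytes and lysis of red blood cells had been used to reduce these cells, which could not be checked here, since the files list Ensembl identifiers without names and the gene table used here matched 0 of them. The names GAPDH, ACTB and B2M belong to identifiers that were given with the rule.

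Every measurement of a transcript is relative to something that is taken to stay the same. In a real-time PCR assay this is a reference gene, and in RNA-Seq it is the bulk of the genes, which fixes the scaling of each library. Genes used for this purpose are mostly those of basic cell functions. GAPDH is an enzyme of glycolysis, ACTB is the beta-actin of the cytoskeleton, and B2M is the light chain of the class I antigen-presenting molecules. The study used GAPDH as the reference of its real-time PCR. There the average crossing point of a gene (a PCR cycle number) was divided by that of GAPDH. This quotient was set against the ratio of their RNA-Seq counts, so GAPDH was on both sides. Whether the spread of GAPDH described below affected that comparison was not tested. The primer pair of GAPDH is shown in lower case without marked bases.
GAPDH forward: aaggccatcaccatcttcca
GAPDH reverse: tcacgcccatcacaaacatg

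The 150 genes had SDs between 0.0780 and 0.151 on the log2 scale, with a median of 0.137. Over all 5614 genes the median SD was 0.311, which is 2.27 times as large, and the highest was 4.02. On the linear scale the median coefficient of variation of the 150 genes was 9.49%, against 22.0% over all 5614 genes. The highest of the 23 cows exceeded the lowest by 1.20 to 1.72 times, with a median of 1.45 times. It was under 1.5 times in 105 of the 150 genes, and under 2 times in all 150. Of the 5614 genes, 1602 also stayed within 2-fold over the 23 cows, and 664 had an SD under 0.2.

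**Figure D1:**
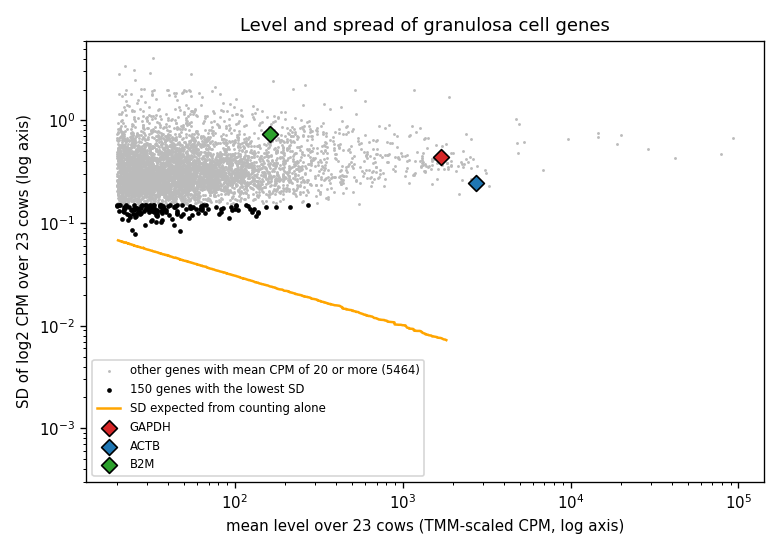
Each point is 1 of the 5614 genes with a mean of at least 20 CPM, with its mean CPM over 23 cows (horizontal, log axis) and the SD of its log2 CPM (vertical, log axis), black for the 150 genes with the lowest SD. The line is the running median of the SD that counting alone would give. The black points lie between 0.0780 and 0.151, and GAPDH (0.441), ACTB (0.247) and B2M (0.745) lie above them.

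The gene with the lowest SD was ENSBTAG00000013265. Its level lay between 23.6 CPM in cow 18 and 28.2 CPM in cow 21, with a median of 25.0 CPM. ENSBTAG00000013410 followed with an SD of 0.0829 and levels from 40.8 to 51.7 CPM. ENSBTAG00000004791 was the third, with an SD of 0.0849 and levels from 21.8 to 27.0 CPM. In each of them the highest cow exceeded the lowest by at most 1.27 times, and ENSBTAG00000013410 had its lowest value in cow 24.

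The next genes by SD were ENSBTAG00000011250 (SD 0.0962) and ENSBTAG00000000320 (SD 0.0963), and these 5 genes were the only ones of the 150 with an SD under 0.1. They were followed by ENSBTAG00000005493, ENSBTAG00000008606, ENSBTAG00000020314, ENSBTAG00000020653 and ENSBTAG00000014043, with SDs from 0.102 to 0.107. Over these 10 genes the highest cow exceeded the lowest by 1.20 to 1.40 times, and all levels lay between 21.8 and 51.7 CPM. What these genes do could not be stated, since their identifiers are not paired with names.

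The SD of 23 values has itself a relative standard error of 15.1% for normally distributed values, so neighbours in this order cannot be told apart. The boundary of the set was equally shallow. The last 3 genes inside it had SDs of 0.1512, 0.1512 and 0.1515, and the first 3 outside it 0.1516, 0.1519 and 0.1519. The limit of 150 genes is therefore a convention and not a gap in the data.

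Counting error accounted for part of these small SDs. A gene with few read pairs varies between libraries by sampling alone, and the SD expected from this was between 0.0180 and 0.0668 for the 150 genes, with a median of 0.0504. It made up a median of 13.8% of their variance, against 1.89% over the 5614 genes. For the gene with the lowest SD this share was 57.3%, for the second 27.4% and for the third 50.0%, and in 118 of the 150 genes it was under 20%. Once the counting part was taken off, the SD of the 150 genes had a median of 0.127 and that of all 5614 genes a median of 0.308. The choice of genes by the SD without the counting part shared 139 of the 150 genes. The lowest count of any of the 150 genes in any of the 23 cows was 236 read pairs.

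The 150 genes were mostly of modest level. Their mean lay between 20.1 and 275.1 CPM, with a median of 35.2 CPM, while the median of the 5614 genes was 44.9 CPM. Of the 150 genes, 109 had a mean under 50 CPM and 16 had at least 100 CPM, against 3118 and 1170 of the 5614 genes. When the 5614 genes were put in order of level and divided into 10 bins of equal size, the fourth bin (31.8 to 37.6 CPM) held 34 of the 150 genes. The highest bin, from 193.5 CPM upwards, held 2, or 0.356% of its genes. The median SD in the highest bin was 0.393, while in the other bins it lay between 0.284 and 0.326. Levels are per library and not per gene length, so they do not rank the genes by transcript number.

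The highest of the 150 genes was ENSBTAG00000016024, with 228.9 CPM in the lowest cow, a median of 269.9 CPM and 371.4 CPM in the highest. ENSBTAG00000011419 had levels from 163.7 to 253.7 CPM with a median of 211.8 CPM. By SD they were the 143rd and the 99th of the set. Among the 109 genes with a mean of at least 1000 CPM none was in the set. The lowest SD among those 109 genes was 0.191, which was 1.26 times that of the last gene of the set and placed that gene 511th of 5614. A mean of at least 50 CPM instead of 20 removed the 109 genes below it and left 41 in common.

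GAPDH (ENSBTAG00000014731) had a level of 1684 CPM ± 546.3 (SD, n = 23) and was the 56th highest of the 5614 genes. In the high-NTM cows its level lay between 1072 and 2823 CPM, with a median of 1746 CPM. In the low-NTM cows it lay between 1112 and 1903 CPM, with a median of 1375 CPM, so the classes overlapped. Cows 1, 21, 12 and 13 had the highest levels, at 2823, 2729, 2635 and 2523 CPM, all above the low-NTM cows. Cow 22, with 1072 CPM, and cow 7, with 1085 CPM, were the lowest. The range was 2.63-fold. The SD of 0.441 on the log2 scale placed GAPDH 4264th of 5614, so that 75.9% of the genes varied less. It was 3.21 times the median SD of the 150 genes, and counting would give an SD of 0.00761.

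ACTB (ENSBTAG00000026199), with 2754 CPM ± 463.9 (SD, n = 23), had the lowest SD of these reference genes. Its level was between 2174 and 3385 CPM in the high-NTM cows (median 2845 CPM) and between 1772 and 3818 CPM in the low-NTM cows (median 2500 CPM), where cow 9 was the lowest and cow 19 the highest of all 23 cows. The highest level exceeded the lowest by 2.15 times. The SD of 0.247 placed ACTB 1560th of 5614, with 27.8% of the genes below it, and was 1.63 times that of the last gene of the set. Without cow 9 it was 845th. In the low-NTM cows alone, where cows 9 and 19 belong, the order turned, with an SD of 0.321 for ACTB and 0.281 for GAPDH. Among the 109 genes of at least 1000 CPM, ACTB had the fifth lowest SD while GAPDH was 70th.

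B2M (ENSBTAG00000012330) varied most. Its mean was 162.6 CPM ± 101.5 (SD, n = 23), with 54.5 CPM in cow 21 and 513.5 CPM in cow 2, a 9.42-fold range. In the high-NTM cows the median was 123.2 CPM, and in the low-NTM cows it was 136.4 CPM, with levels from 71.7 to 306.5 CPM that all lay within the range of the high-NTM cows. Cow 3, with 310.1 CPM, and cow 19, with 306.5 CPM, followed cow 2. The SD of 0.745 placed B2M 5280th of 5614, so 94.0% of the genes varied less. B2M is expressed by most cell types, leukocytes included, and the part of other cells in its level was not tested. In bulk libraries, fewer cells of a type and less RNA per cell cannot be told apart.

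**Figure D2:**
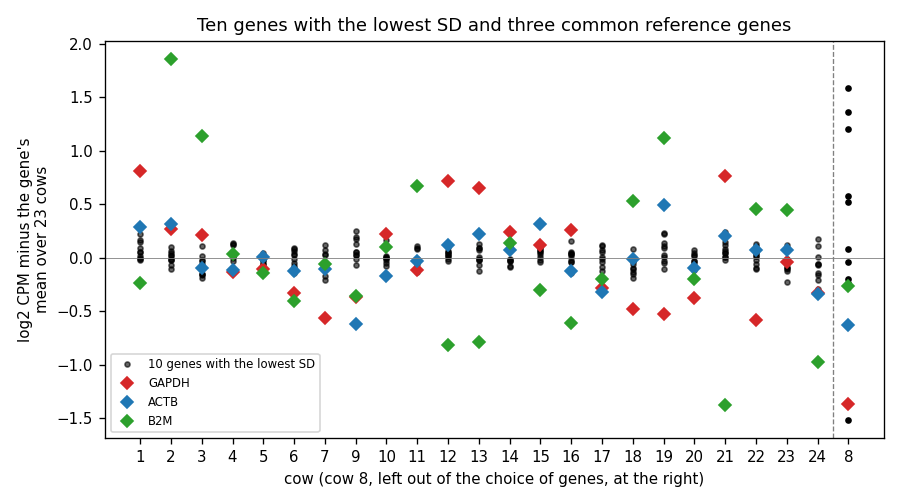
Points show log2 CPM minus the mean of the gene over 23 cows (vertical, log2 units) for the 10 genes with the lowest SD (black) and for GAPDH, ACTB and B2M, by cow (horizontal), with cow 8 at the right. In the 23 cows the black points stay near 0 while B2M reaches from 54.5 to 513.5 CPM. In cow 8 the black points spread.

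A ratio between genes within a library does not depend on the scaling of the library, so it was computed as a further description. For the 45 pairs among the 10 genes with the lowest SD, the SD of the log2 ratio over the 23 cows lay between 0.0753 and 0.155, with a median of 0.121. Over all 11175 pairs of the 150 genes its median was 0.179 and its highest value 0.272. For ACTB against each of the 150 genes the median was 0.267, for GAPDH 0.452 and for B2M 0.764. The ratio of GAPDH to ACTB had an SD of 0.412, that of ACTB to B2M 0.718 and that of GAPDH to B2M 0.974. The median for ACTB was thus just below the highest value inside the set, and those for GAPDH and B2M were above it. The low spread of ratios inside the set follows in part from the choice of its genes by their SD.

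The mean log2 CPM of the 150 genes had an SD of 0.0424 over the 23 cows, and lay between 0.122 below its average, in cow 24, and 0.0616 above it. Of the 150 genes, 45 had their lowest value in cow 24, while no other cow was the lowest for more than 10. Cow 24 had the smallest library, with 15525201 read pairs counted on genes, where the others of the 23 had at least 21488333. Cow 19 was the highest for 22 of the 150 genes. The part of these libraries in the order of the genes was measured by leaving them out, and without cows 19 and 24 the same rule shared 107 of the 150 genes.

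Because the SD chose the genes, their spread was measured in cows that had no part in the choice. Each of the 23 cows was left out in turn, 150 genes were chosen from the other 22 cows, and their deviation in the cow left out was taken from the mean of the 22. The median absolute deviation of the chosen genes was between 0.0726 (cow 16) and 0.257 (cow 24) on the log2 scale, with a median over cows of 0.102. For all genes of at least 20 CPM it was between 0.122 and 0.469, with a median of 0.202. It was lower for the chosen genes than for all genes in 23 of 23 cows, by 1.39 to 3.34 times. The 23 repeats share most of their cows, so no test was applied to them.

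In 21 of the 23 cows this median absolute deviation of the chosen genes was under 0.15. The exceptions were cow 19, with 0.179, and cow 24, with 0.257. In 17 cows not 1 of the 150 chosen genes was off by more than 0.5, while in cow 24 this was the case for 17 genes and in cow 19 for 11. In cow 24 the chosen genes were lower as a group, with a median deviation of -0.25, and in the other 22 cows this median lay between -0.09 and 0.10. In cow 19 the genes at large deviated most of the 23 cows, with 46.9% off by more than 0.5.

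**Figure D3:**
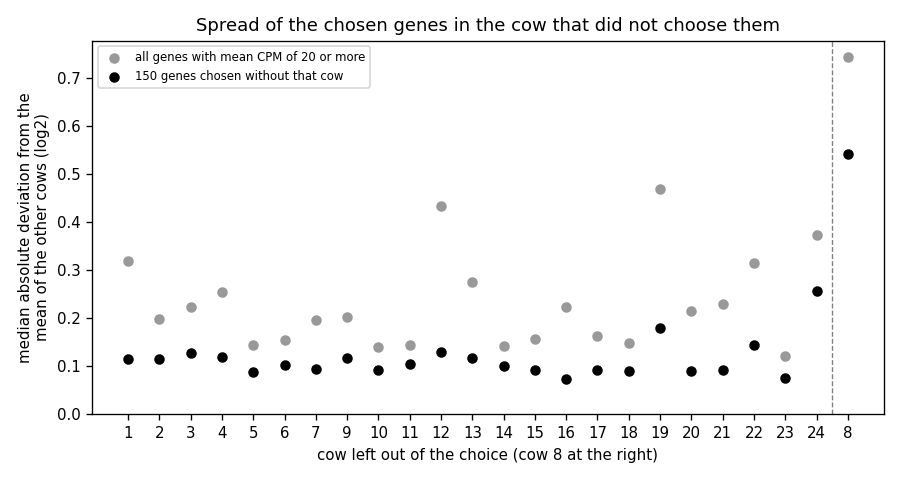
Points give the median absolute deviation (vertical, log2 units) from the mean of the other cows, for the 150 genes chosen without that cow (black) and all genes of at least 20 CPM (grey), by the cow left out (horizontal). The black point is below the grey point for every cow. For cow 8 it is at 0.541, and for the other cows it reaches at most 0.257.

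The same was done between the NTM classes, which share no cow. Of the 150 genes chosen in the 15 high-NTM cows, 149 passed the level limit in both classes. These had a median SD of 0.164 in the 8 low-NTM cows, where the median of all 5341 genes compared was 0.291. Of the 149 genes, 146 were below that median. Of the 150 genes chosen in the low-NTM cows, 141 passed the level limit in both classes. Their median SD was 0.188 in the high-NTM cows, where the median of all genes was 0.292, and 133 of 141 were below it. The lists had 25 genes in common, which is 16.7% of each, where 150 genes are 2.81% of the 5341 genes. Over the 5341 genes, the SDs in the classes had a rank correlation of 0.661, a description across genes that are no replicates of each other.

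In cow 8 the 150 genes did not hold their levels. The libraries of 24 cows were scaled together for this, and the level in cow 8 was compared with the mean of the other 23 cows. The median absolute deviation was 0.541, against 0.745 over the 5614 genes, and the largest value of the same measure in any of the other cows was 0.257. Only 26 of the 150 genes were within 0.2 of the mean on the log2 scale, or 17.3%, against 14.1% of the 5614 genes. The genes of the set went both ways, with 79 higher and 71 lower. Their median shift was 0.0908, while the 5614 genes had a median shift of -0.21. Both sets passed the level limit on the 23 cows alone, so a gene high only in cow 8 could not enter, which can lower these shifts. As 1 library, cow 8 has no replicate and no test was made. The authors had set it aside for its poor mapping, and the part of library quality in these deviations was not tested.

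Of the 150 genes, 60 were above the highest and 47 below the lowest of the 23 cows, so 71.3% were outside the range. Of the 5614 genes, 53.2% were outside their range. The narrow ranges of the 150 genes were fixed by the choice, so a larger share outside them is no sign of a larger change. By size, 22.0% of the 150 genes were off by more than 1 on the log2 scale, against 36.0% of the 5614 genes. The rank inside the set did not order the deviation. The median absolute deviation in cow 8 was 0.459 for the 50 genes with the lowest SD, 0.656 for the next 50 and 0.525 for the last 50.

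The gene of the set that was highest in cow 8 relative to the other cows was ENSBTAG00000005067, with 292.5 CPM, or 5541 read pairs, where the others had between 50.7 and 71.3 CPM (log2 difference 2.27). ENSBTAG00000019013, at 22.8 to 31.6 CPM in the others, reached 108.2 CPM. The largest fall was that of ENSBTAG00000027626, from at least 26.2 CPM in the others to 3.06 CPM, or 58 read pairs (log2 difference -3.24). ENSBTAG00000005694, the third highest gene of the set, had 47.7 CPM in cow 8 and at least 148.2 CPM in the others. The 3 genes nearest to their mean differed from it by -0.04 to 0.04.

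Among the 10 genes with the lowest SD, 7 were outside the range of the 23 cows in cow 8. ENSBTAG00000013410, the second of the order, had 16.5 CPM in cow 8, below the lowest other cow (40.8 CPM). ENSBTAG00000011250 was above the highest (50.4 CPM), with 130.0 CPM. On the other hand, ENSBTAG00000005493 was within its range, with 35.2 CPM in cow 8 and a median of 35.9 CPM in the others. The mean log2 CPM of these 10 genes was 0.331 higher in cow 8. GAPDH, with 624.5 CPM, and ACTB, with 1754 CPM, were both the lowest of the 24 cows there, with log2 differences of -1.37 and -0.63. B2M, with 117.9 CPM, was 16th of the 24 and within the range of the others.

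**Figure D4:**
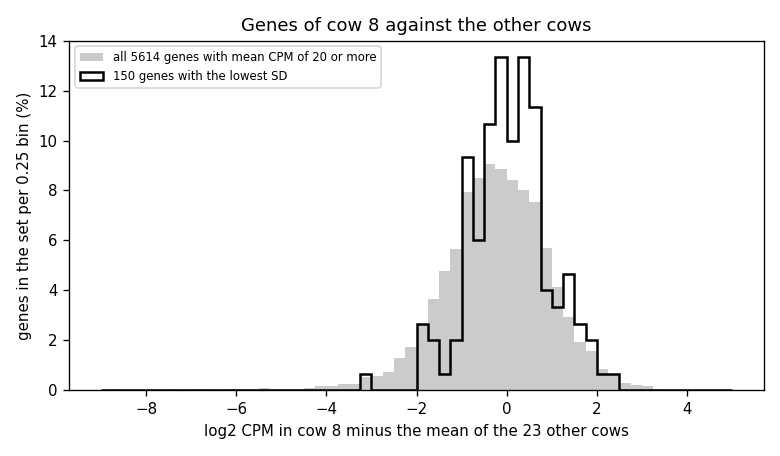
Histogram of the log2 CPM of cow 8 minus the mean of the 23 other cows (horizontal, log2 units) as a percentage of genes per 0.25 bin (vertical), for the 150 genes (black line) and the 5614 genes (grey). The 150 genes have their median at 0.0908 and reach from -3.24 to 2.27, to either side of 0 like the 5614 genes.

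The correlations among the genes of the set had a narrower spread than those among the genes at large, with a similar median. Over pairs of the 150 genes, the Pearson correlation of log2 CPM across the 23 cows had a median of 0.0981 and 90% of pairs lay between -0.352 and 0.549. Over pairs of the 5614 genes the median was 0.0831 and the same limits were -0.620 and 0.735. The correlation exceeded 0.8 in 10 pairs of the set, or 0.0895%, against 2.53% of all pairs. The first principal component of the 12868 genes that reached 1 cpm in 3 or more cows held 38.0% of their variance. The median size of the correlation with it was 0.265 in the set and 0.478 over the 5614 genes. These values share the cows and the library scaling, are smaller in genes with more counting error, and are a description. The component was taken from unscaled log2 CPM, so genes with a large SD weigh most in it. The lower correlation of genes chosen for a low SD thus follows in part from that choice. The study reported that the first component of its own analysis correlated with the RNA integrity number (RIN). RIN is not in the labels, so whether the component here follows it was not tested.

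The study asked which genes follow the IVP scores, so the 12868 genes were regressed on each score with the NTM class as covariate, by the quasi-likelihood test of edgeR, and p-values were adjusted by the Benjamini-Hochberg method (FDR). A low SD limits the slope a gene can have, so the counts of the set are a description and nothing is read from them. The study itself reported genes for each of the 3 scores at an FDR under 0.05, by DESeq2's Wald test. Its scores had first been adjusted for the bull, and its model held age, RIN and sampling date. None of these is in the labels by cow, so the scores were used as given. The models differ, so the counts here do not test those of the study. For BL rate, 0 of the 150 genes had an FDR under 0.05, and 0% of all genes tested did (0 of 12868). At an unadjusted p-value under 0.05 there were 0 of the 150 genes, where the share over all genes was 2.95%. For kinetic, 0 of the 150 genes passed the FDR, with 0.00777% of all genes (1 gene), and 1 gene of the set had an unadjusted p-value under 0.05, with 3.97% of all genes. For morphology, 0 passed the FDR, again with 0.00777% of all genes, and 3 of the 150 genes were under 0.05 unadjusted, with 11% of all genes. DESeq2's Wald test called 0 of the 150 genes for each of the 3 scores, and over all 12868 genes it called 73 for morphology, 3 for kinetic and 0 for BL rate.

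The slopes of the set were small in size. Their median was 0.0180 on the log2 scale per 20% of BL rate, with a highest value of 0.0672, while the median over all genes was 0.0603. Per unit of kinetic it was 0.0357, against 0.111 over all genes, and per unit of morphology 0.0256, against 0.0906. Between the NTM classes, the median size of the log2 difference was 0.0470 in the set and 0.195 over all genes. With 0 of 12868 genes (0%) under an FDR of 0.05 in edgeR's test, 0 of the 150 genes passed for the NTM class. At an unadjusted p-value under 0.05 there were 6 of the 150 genes, where the share of all genes was 21.5% (2770 of 12868). Without cows 19 and 24, both low-NTM, there were 4 of the 150 genes and 1330 of 12677 genes, in an alternative added after seeing the data. DESeq2's Wald test called 16 genes for the NTM class, of which 1 was in the set.

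GAPDH, ACTB and B2M were not chosen by their SD, so their slopes were tested as those of any gene, in edgeR's quasi-likelihood test. None of them had an FDR under 0.05 for any score or for the NTM class. For GAPDH the log2 slope was -0.16 per 20% of BL rate (standard error 0.0928, FDR = 0.977) and -0.16 per unit of morphology (standard error 0.0995, FDR = 0.487). For kinetic the slope of GAPDH was -0.17 (standard error 0.182, FDR = 0.969), and it changed sign in the 21 cows that gave blastocysts. The log2 level of GAPDH differed by -0.29 between low-NTM and high-NTM cows (standard error 0.186, FDR = 0.35).

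For ACTB the slope was -0.07 per 20% of BL rate (standard error 0.0576, FDR = 0.977). Its slopes on kinetic (-0.07) and on morphology (-0.03) were smaller than their standard errors of 0.112 and 0.0629. The slope of B2M was 0.44 per unit of kinetic (standard error 0.34, FDR = 0.969), 0.31 per unit of morphology (standard error 0.184, FDR = 0.479) and -0.02 per 20% of BL rate (standard error 0.199, FDR = 1). In the 21 cows that gave blastocysts the slope of B2M on BL rate was -0.23, and it did not pass the FDR there either. The highest slopes of the set, which were 0.0672 (BL rate), 0.152 (kinetic) and 0.105 (morphology), were each below or about as large as the standard errors of GAPDH and B2M for the same score, so slopes of that size were not detectable for these genes.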

How the data were processed

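RNA of granulosa cells from 24 cows was sequenced, 1 library per cow, after depletion of ribosomal RNA with a stranded kit. The authors deposited raw counts of read pairs for each Ensembl gene, made with cutadapt, PRINSEQ, STAR in 2 passes on UMD3.1 and HTSeq-count with reverse strandedness. They are not normalised and not corrected for GC content or length. Totals per cow lay between 15525201 and 27074496, which sets the counting error.

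The 24615 genes listed for all cows were scaled with edgeR's TMM (edgeR 4.0.16, R 4.3.3), expressed as log2 CPM with a prior count of 2, and ordered by SD over 23 cows, without cow 8. The variance expected from counting was the mean over cows of 1 / (count + 2), put on the log2 scale. Regressions used edgeR's quasi-likelihood test on genes that reached 1 cpm in 3 or more cows, with DESeq2 1.42.0 as an alternative. Standard errors are the size of the log2 slope over the square root of F. The fits and the choice of genes were tested on simulated data. Permutation tests used 100000 resamples (scipy 1.17.1).

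Named genes are GAPDH, ACTB, B2M, the 10 genes with the lowest SD and those at the ends of level and of cow 8. Of the latter, 2 per end are printed, because identifiers are not paired with names. For the same reason the gene lists (other reference genes, pathways, cell type markers) and the adjustment for GC content and length could not be used. The members and the lists were chosen with earlier results of these data known. Age, RIN, bull and sampling date are not in the labels by cow and were not used, so no value within dates was computed.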

Additional observations from a re-analysis of the deposited data

Results flagged for a closer look

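Among 6 measures examined in the 8 low-NTM cows other than cow 8, a cow stood apart from the rest in 2. Both times it was cow 19. Chance gives about 1 in 20 for any given measure with normally distributed values. The 6 measures share the cows and in part the genes, so that rate does not apply to them together. Whether 2 of 6 is more than chance gives was not tested. The 150 genes held 1.05% of the counts of cow 19, and the next highest of the 8 cows had 0.804%. Outside the 8 cows, the share was 0.962% in high-NTM cow 22 and 0.944% in cow 8. This share is of unscaled counts, and cow 19 had the highest TMM factor of the 23 cows, 1.38. B2M had 306.5 CPM in cow 19, and the next highest low-NTM cow had 155.8 CPM, while in the high-NTM class cows 2 and 3 had more than cow 19. B2M was examined in CPM only. Its log2 CPM minus the mean of the 23 cows was 1.12 in cow 19 and 0.140 in cow 14, the next highest low-NTM cow. In cow 24, the lowest low-NTM cow, it was -0.978. Whether cow 19 stands apart on the log2 scale was not tested.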

How the results depend on the processing

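The choice of the genes depended on the scaling, on the level limit and on the cows. Of the 150 genes, 27 were shared when libraries were scaled by total counts only, against 129 with DESeq2 size factors and 114 with upper-quartile factors. A mean of at least 50 CPM shared 41 genes (only 41 of the 150 reach it), no level limit 25 and the median absolute deviation 70. With cow 8 included 73 were shared, with the high-NTM cows alone 93 and with the low-NTM cows alone 59. When each cow was left out in turn, between 115 (cow 24) and 144 genes were shared, and 91 of the 150 genes, among them the 50 with the lowest SD, were chosen in all 23 repeats. Without cows 19 and 24, an alternative added after seeing the data, 107 were shared.

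Leaving out each cow placed GAPDH between 4114th and 4468th, B2M between 5043rd and 5338th and ACTB between 845th and 1826th by SD, the lowest without cow 9. ACTB was 2619th with total counts only, 735th by the median absolute deviation and 405th by SD against the trend on level. In the same settings GAPDH was 4035th, 4852nd and 3234th, and B2M was 5355th, 5314th and 5272nd. In the low-NTM cows alone ACTB was 3170th and GAPDH 2764th. The median absolute deviation of the 150 genes in cow 8 was 0.541 to 0.567 under 4 scalings. DESeq2's Wald test called 1 of the 150 genes for the NTM class, where it called 16 of all 12868 genes. In the other fits no gene of the set passed for any score or class, where between 0 and 186 of all genes tested did. Over all genes tested, 186 of 22830 passed for kinetic without the low-count filter and 73 of 12868 for morphology in DESeq2's Wald test, against 1 each in edgeR's test with the filter. In the 21 cows that gave blastocysts, slopes changed sign to 0.18 for GAPDH on kinetic, and to 0.32 on kinetic and 0.14 on morphology for ACTB. The causes were not tested. The adjustment for GC content and length was not run, because the identifiers could not be matched to a table. No paired analysis was possible because each cow is a separate animal and the classes share no numbers in the labels.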

Other observations

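The levels of the common reference genes were compared with each other over the 23 cows, in 3 relations. GAPDH and ACTB had a Pearson's r of 0.394 (two-sided permutation test, p = 0.0601, adjusted p = 0.18) and a Spearman's rho of 0.383 (permutation test, p = 0.0721, adjusted p = 0.216), and r was 0.277 without cows 1 and 21, the farthest from the median of GAPDH. Within the NTM classes r was 0.585 (15 cows, high) and -0.0322 (8 cows, low). GAPDH and B2M had r = -0.303 (permutation test, p = 0.157, adjusted p = 0.203), rho = -0.294 (p = 0.175, adjusted p = 0.262), and r = -0.152 without the same cows. ACTB and B2M had r = 0.274 (permutation test, p = 0.203, adjusted p = 0.203), rho = 0.20 (p = 0.358, adjusted p = 0.358), and r = 0.124 without cows 9 and 19. The r of ACTB and B2M was 0.81 in the low-NTM cows, which include cow 19, and -0.0249 in the high-NTM cows, and the difference was not tested. No relation passed the adjustment.

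At the other end of the range, the genes with the largest SD among the 5614 were ENSBTAG00000017931 and ENSBTAG00000031468, with SDs of 4.02 and 3.40. ENSBTAG00000017931 had 0 counts in its lowest cow, a median of 24.0 CPM and 134.8 CPM in its highest cow. ENSBTAG00000031468 had a median of 5.68 CPM and 97.9 CPM in its highest cow.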
